A study of Ambystoma mexicanum with 60 samples.

Results

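The transcripts described are those of the axolotl *Ambystoma mexicanum* whose human ortholog symbol has the form used for zinc finger and BTB genes. They were chosen by symbol alone, as names that begin with ZNF or ZBTB and a number, or with ZSCAN, ZKSCAN, ZFHX or IKZF, or that read ZFX. The ortholog table holds 410 such transcripts, of which 356 are among the 28909 transcripts of the count table and 54 are not. These 356 members carry 159 human symbols. Of them 269 were ZNF transcripts (117 symbols), 65 were ZBTB transcripts (34 symbols), 12 belonged to IKZF4 and IKZF5, 5 were ZSCAN or ZKSCAN transcripts, 3 belonged to ZFX and 2 to ZFHX2 and ZFHX3. A symbol had 1 transcript in 72 cases and 2 or more in 87, up to 11 for ZNF282 and ZNF300. The axolotl symbol equalled the human symbol in 340 members, and 44 had a listed paralog, whose reads could be split between copies by the authors' counting. The names alone do not make each member a transcription factor. A list of symbols with roles in RNA, ribosomes, the spindle or ubiquitin covered 39 members (12 symbols).

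Classical C2H2 zinc fingers are small domains that hold a zinc ion and read a few bases of DNA each, and most factors of this kind carry several in a row. The BTB domain of the ZBTB factors pairs 2 protein copies and, in the well-studied mammalian members, recruits corepressors such as NCOR1 and BCOR. Many mammalian ZNF factors silence transposable elements through the KRAB domain and TRIM28, and the Ikaros factors (IKZF) are best known from lymphocytes. In an amphibian egg, before the embryonic genome is switched on, such RNAs are laid down by the mother. An RNA held at the vegetal pole enters the cells that form endoderm and, in frogs, germ cells, and one at the animal pole enters those that form ectoderm.

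Whole embryos of 4 stages (1-cell, 4-cell, 64-cell and 1K-cell, the early blastula) were frozen and cut along the animal-vegetal axis, and the slices of an embryo were pooled into sections A (extremely animal), B, C, D and E (extremely vegetal). All were untreated and fertilized, and they came from 2 independent experiments with different parents, without a record of which embryo came from which. Each stage had 3 embryos, 12 in all, and 59 of 60 labelled libraries were used. Section D of 1-cell replicate 3, which the labels call an outlier, has no values among the deposited counts and was not analysed here. D thus has n = 2 at that stage, and the total of that embryo lacks it.

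Libraries held 1546418 to 6001350 counts, and members made up 1.06% to 1.27% of the counts of a section on average. Equal amounts of RNA went into the libraries and ribosomal RNA was depleted, so a value is a level relative to the other RNAs counted. After the 1-cell stage, fewer cells of a type and less RNA per cell cannot be told apart. Neither the share of a section nor the total of an embryo was weighted by how much RNA a section held. Of the oocyte markers, 6 of 7 were in the table, *gdf9* and *bmp15* among them, with totals of 186 normalized counts or more in every embryo. Of 7 somatic and blood cell markers only the leucocyte gene *ptprc* was in the table. It stood at 304, 316 and 248 normalized counts in the 3 embryos at the 1-cell stage and at 1.16 to 13.2 in the 9 later ones. The 4 vegetal germ-line RNAs *grip2*, *dnd1*, *nanos1* and *rbpms2* were called vegetal at the 1-, 4- and 64-cell stages, and 3 of them at the 1K-cell stage. Each of these markers was represented by its transcript with the highest mean count.

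Along the axis, the ZBTB transcripts that edgeR called with median-of-ratios scaling lay on the vegetal side. The 5 genes *zbtb22*, *zbtb10*, *zbtb12*, *zbtb18* and *zbtb40* each had a transcript called vegetal in all 4 stages. With edgeR no ZBTB transcript was called animal at any stage, except 1 at the 64-cell stage with TMM scaling. DESeq2 called 5, 0, 1 and 1 animal in the order of the stages, beside 13, 9, 10 and 8 vegetal. The shares of all transcripts called by DESeq2 were not examined, so these counts are not read as particular to members. Animal calls by edgeR were rare among all transcripts too, at 1.34%, 0.169%, 0.405% and 0.342% in that order. A single ZNF member, *znf292*, was called at all 4 stages on the animal side. A transcript was called differentially localized (a DLT) at an adjusted p under 0.01 by edgeR's quasi-likelihood test over the 5 sections, with the embryo as a term and a mean total above 20 normalized counts in at least 1 stage, which all 356 members had. Its direction was read from the vegetal-to-animal difference, the mean log2 level of the vegetal sections D and E less the mean of the animal sections A and B.

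At the 1-cell stage 20 of the 356 members were DLTs (5.62%), beside 6.93% of all transcripts. The 15 vegetal ones came from 12 symbols (4.21%, beside 5.59% of all transcripts) and 5 were animal (1.40%, beside 1.34%). The subfamilies, which were split by name and not by domain, were unlike in these counts. ZNF131, a BTB-containing protein, thus counts as ZNF, and ZBTB8OS counts as ZBTB by its name. Of the 65 ZBTB transcripts 9, from 6 genes, were vegetal (13.8%) and 0 animal, whereas of the 269 ZNF transcripts 5 were vegetal and 5 animal (1.86% each). The remaining vegetal DLT was a transcript of *ikzf4*. The median vegetal-to-animal difference was -0.09 over members and -0.04 over the 28772 transcripts above the total minimum, and it was -0.12 for ZNF and -0.07 for ZBTB. The median of the ZBTB subfamily was thus near 0 beside its 9 vegetal calls. With TMM scaling the calls were 12 vegetal and 7 animal. With counts summed per symbol 23 symbols were called, 13 vegetal and 10 animal. The 20 calls fell to 7 without replicate 3. Leaving out replicate 1 or 2 left section D of this stage with a single library, since replicate 3 lacks it. Calls lost in the egg without either of them rest on such fits.

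At the 4-cell stage 7 members were DLTs (1.97%, beside 2.25% of all transcripts), 6 vegetal (1.69%, beside 2.08%) and 1 animal (0.281%, beside 0.169%). All 6 vegetal ones were ZBTB transcripts (9.23% of 65, beside 2.08%). At the 64-cell stage there were 9 (2.53%, beside 3.7%), and at the 1K-cell stage there were again 9 (2.53%, beside 3.55%). Both of the later stages had 7 vegetal ones (1.97%, beside 3.3% and 3.2%) and 2 animal ones (0.562%, beside 0.405% and 0.342%). At each, 5 of the vegetal ones were from the ZBTB subfamily (7.69%, beside 3.3% and 3.2%). Median differences of the members were -0.07, -0.07 and -0.02 at these 3 stages, beside -0.00, -0.03 and -0.02 over all transcripts. Counts fell to between 1 and 3 at the 4-cell stage, 2 and 6 for 64-cell embryos and 3 and 4 for 1K-cell embryos when any 1 embryo was left out. Across stages, 335 members were a DLT at none, 11 at 1 stage, 2 at 2, 2 at 3 and 6 at all 4, beside 91.8%, 4.36%, 1.18%, 0.975% and 1.7% of all transcripts.

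**Figure D1:**
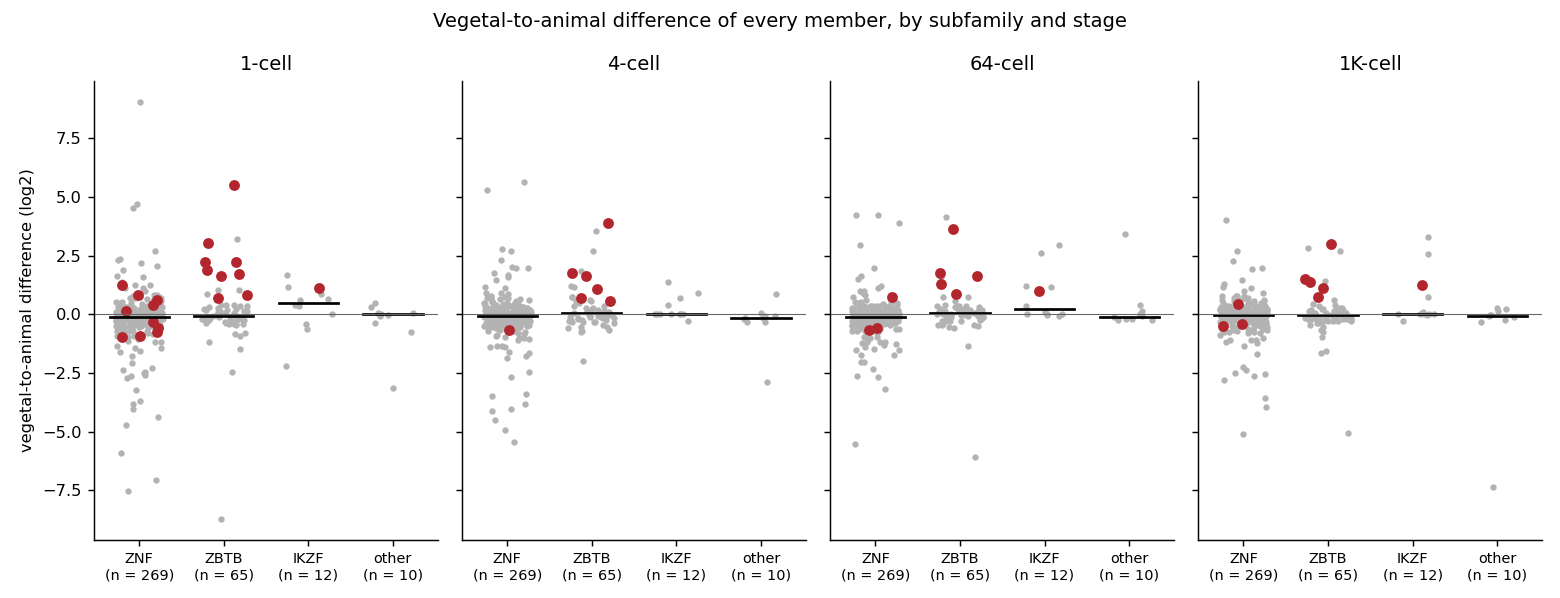
Vegetal-to-animal difference (log2, vertical axis) of all 356 members at each stage, by subfamily; red points are DLTs, grey points are the other members, and black lines are medians. Every red point of the ZBTB column (edgeR calls) lies above 0 at each stage, while the ZNF column has red points on both sides, and the medians stay near 0.

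The DLT with the largest difference among members was *zbtb22* (AMEXTC_0340000010401), a BTB zinc finger gene with a single transcript in the table. At the 1-cell stage its normalized counts were 14.3, 17.6 and 15.9 in section A of the 3 embryos and 3481, 2034 and 2438 in section E. Section D held 256 and 319.6. Section E thus had a mean 166 times that of A, and held 87.7% ± 5.55 (SD, n = 2 complete embryos) of the normalized counts of an embryo. The vegetal-to-animal difference was 5.50 ± 0.18 (log2 ± SE, edgeR adjusted p = 7.15e-08), with no overlap between sections A and E.

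The profile of *zbtb22* was flatter at each later stage. Its difference was 3.89 ± 0.24 (4-cell), 3.63 ± 0.22 (64-cell) and 3.00 ± 0.20 (1K-cell) (edgeR adjusted p = 8.7e-06, 1.02e-05 and 3.51e-05). The share in section E was 70.3% ± 6.84, 58.7% ± 5.16 and 50.2% ± 2.5 (SD, n = 3 each). At the 1K-cell stage section A still held only 15.1, 21.7 and 47 normalized counts beside 466, 317 and 449.7 in E. Section levels were scaled within each stage, so shapes and not heights are compared between stages.

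The 4 other ZBTB genes had shallower gradients of the same direction. ZBTB10, known in human cells as a repressor of Sp factor targets, had a transcript (AMEXTC_0340000011917) at 119.9, 107 and 117 normalized counts in section A at the 1-cell stage and at 1063, 928 and 1101 in section E. Its difference was 2.23 ± 0.11, 1.78 ± 0.08, 1.78 ± 0.12 and 1.52 ± 0.07 in the order of the stages (edgeR adjusted p = 1.35e-05 or less at each). All 3 embryos had E far above A at every stage. For *zbtb12* (AMEXTC_0340000049042) section A held 65.3, 72.3 and 77.3 and section E 653, 433 and 746 at the 1-cell stage. Its difference was 2.21 ± 0.15, 1.61 ± 0.21, 1.61 ± 0.10 and 1.39 ± 0.07 in the order of the stages (edgeR adjusted p = 0.00223 or less).

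ZBTB18 is a repressor needed for the maturation of cortical neurons in the mouse. Its transcript AMEXTC_0340000014396 was also among the 10 members with the highest counts, at 377, 388 and 327 normalized counts in section A and 2791, 1738 and 2553 in section E of the 1-cell stage. Its difference was 1.73 ± 0.14, 1.09 ± 0.10, 1.30 ± 0.08 and 1.10 ± 0.06 over the stages (edgeR adjusted p = 4.38e-05 or less). For *zbtb40* (AMEXTC_0340000162934) section A held 302, 292 and 371 and section E 1749, 1385 and 2152 at the 1-cell stage. Its difference was 1.64 ± 0.10, 0.68 ± 0.09, 0.86 ± 0.05 and 0.72 ± 0.05 (edgeR adjusted p = 0.00148 or less). In both genes sections A, B and C lay close together and E stood apart.

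Leaving out 1 embryo at a time kept the sign of each of these differences, but not each call. Calls held every time for *zbtb22* in the egg, for *zbtb10* in all but the 64-cell stage, for *zbtb12* in all but the 4-cell stage, for *zbtb40* in the egg and at the 64-cell stage and for *zbtb18* at the 1K-cell stage. The call of *zbtb12* at the 4-cell stage and those of *zbtb40* at the 4- and 1K-cell stages were lost whichever embryo was left out (highest adjusted p = 0.178, 0.217 and 0.0182). The others were lost without 1 or 2 of the embryos. In the egg this was *zbtb18* without replicate 1 (adjusted p = 0.0116). At the 4-cell stage *zbtb22* lost its call without replicate 3 (0.0117) and *zbtb18* without replicate 1 or 3 (up to 0.0338). At the 64-cell stage *zbtb22*, *zbtb10* and *zbtb18* lost theirs without replicate 3 (0.0187, 0.0201 and 0.0119), and at the 1K-cell stage *zbtb22* lost its call without replicate 2 (0.0201). All of these are adjusted p-values of edgeR.

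**Figure D2:**
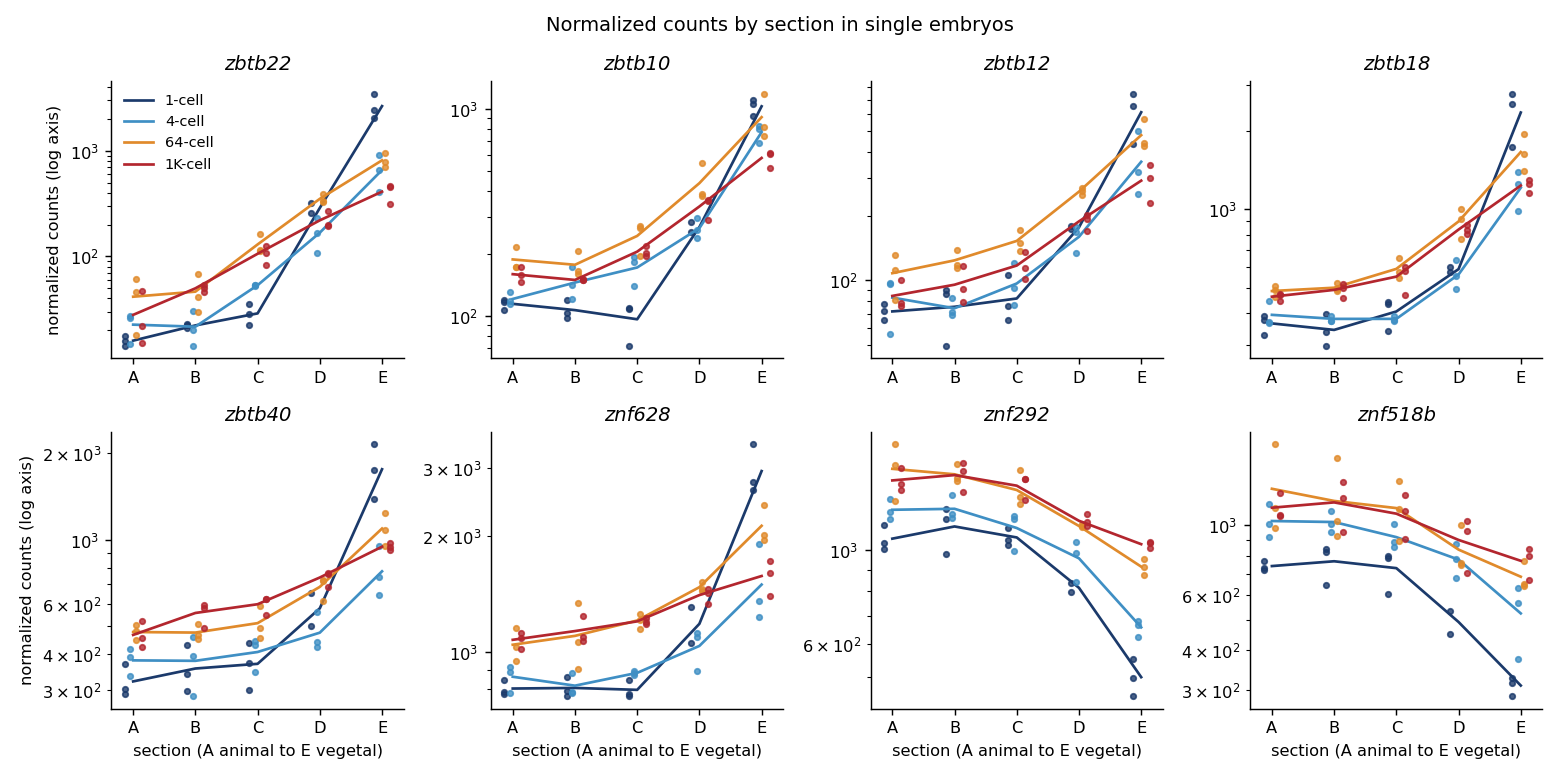
Normalized counts (log axis) in sections A to E of 8 member transcripts; points are single embryos, lines are means, colours are stages, and levels are scaled within a stage. In *zbtb22* the 1-cell line climbs from about 16 in A to over 2000 in every embryo in E, and the 5 ZBTB genes and *znf628* rise towards E while *znf292* and *znf518b* fall.

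Where a gene had a second transcript, its profile could match or not. A second *zbtb10* transcript (AMEXTC_0340000246231) was vegetal at the 1-cell stage, at 27.7, 20.4 and 24 in A and 193, 415 and 319 in E (difference 3.02 ± 0.30, edgeR adjusted p = 0.000314). A second *zbtb12* transcript (AMEXTC_0340000215701) had 14.3, 12 and 18.4 in A and 100, 98.2 and 62.2 in E (1.89 ± 0.28, adjusted p = 0.00184), and a second of *zbtb18* (AMEXTC_0340000210200) had 24.2, 53.7 and 52.2 in A and 184, 101 and 176 in E (0.82 ± 0.30, adjusted p = 0.00973). The third *zbtb12* transcript (AMEXTC_0340000215702), with totals of 1480 to 2188, had a difference of 0.03 and was no DLT (adjusted p = 0.576). Summed over its 3 transcripts, *zbtb12* had a difference of 0.87 ± 0.08 in the egg (edgeR adjusted p = 9.76e-06). So 2 transcripts of each of 3 genes were vegetal in the egg, and the *zbtb12* transcript with the most counts was not. The calls of the second *zbtb10* and *zbtb12* transcripts were lost whichever embryo was left out (highest adjusted p = 0.0368 and 0.161). *zbtb37*, of which 1 transcript (AMEXTC_0340000202344) was vegetal at the 1- and 4-cell stages, had the smallest gradient among the ZBTB calls, with differences of 0.71 ± 0.12 and 0.55 ± 0.08 (adjusted p = 0.0038 and 0.004). The calls of *zbtb37* and of the second *zbtb18* transcript were not examined with an embryo left out.

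Among the ZNF members the vegetal side was led by *znf628* (AMEXTC_0340000267550). At the 1-cell stage it had 780.1, 786 and 845 normalized counts in section A and 2753, 2628 and 3458 in section E. Its difference was 1.24 ± 0.07 (1-cell), 0.73 ± 0.06 (64-cell) and 0.43 ± 0.05 (1K-cell; edgeR adjusted p = 1.08e-06, 0.000101 and 0.00463). In 4-cell embryos it was 0.56 ± 0.10 and missed the threshold (adjusted p = 0.0181). Whichever embryo was left out, the call held in the egg and was lost at the 64- and 1K-cell stages. Another 4 were vegetal in the egg alone, *znf268*, *znf318*, *znf106* and a transcript of *znf638* (AMEXTC_0340000021145), with differences of 0.61, 0.83, 0.38 and 0.14. The last had its excess in section E alone, at 414, 322 and 355 beside 239, 264 and 259 in A and 198 and 220.4 in D. The calls of these 4 were not examined with an embryo left out. ZNF638 silences retroviral DNA and ZNF106 binds RNA in mammals, and the *znf638* transcript with the most counts (AMEXTC_0340000034607) had a difference of -0.43 and was not called (adjusted p = 0.0131).

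On the animal side stood *znf292* and *znf518b*. Normalized counts of *znf292* (AMEXTC_0340000004156), whose human gene is linked to neurodevelopmental disorders, were 1005, 1151 and 1041 in section A at the 1-cell stage and 451, 551 and 499 in section E. Sections A and E did not overlap at any stage, and the ratio of their means, A to E, was 2.13, 1.9, 1.71 and 1.42 over the stages. The share of section E was 11% ± 0.702 (SD, n = 2) at the 1-cell stage and 15.7% ± 0.483 (n = 3) at the 1K-cell stage, and sections D and E were below A, B and C in every embryo. Its calls at the 4-, 64- and 1K-cell stages were lost whichever embryo was left out (highest edgeR adjusted p = 0.0987, 0.11 and 0.0998), and in the egg it was lost without replicate 1 or 3 (up to 0.0188).

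ZNF518B is a partner of histone methyltransferases in human cells. Its transcript (AMEXTC_0340000046040) stood at 722, 769.8 and 734 normalized counts in section A of the 1-cell stage and at 286, 315 and 327 in section E. The difference was -0.93 ± 0.06, -0.68 ± 0.08 and -0.48 ± 0.06 at the 1-, 64- and 1K-cell stages (edgeR adjusted p = 2.49e-05, 0.00334 and 0.00489) and -0.70 ± 0.11 at the 4-cell stage (adjusted p = 0.0132). In 64-cell replicate 2 all 5 sections stood above those of the other embryos, at 1810.2 beside 979 and 1131 in A. Without the term for embryo its calls at the 64- and 1K-cell stages were lost (adjusted p = 0.342 and 0.234), as they were whichever embryo was left out, and the call in the egg was lost without replicate 2 (0.0202). The other animal DLTs, all at the 1-cell stage only, were *znf654* (-0.98 ± 0.15), *znf652* (-0.57 ± 0.09) and *znf407* (-0.35 ± 0.06). Each of these 3 lost its call whichever embryo was left out.

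Whether a profile changed between stages was asked with the interaction of section and stage over all libraries, without a term for embryo. Its adjusted p-values cover all stage-by-section terms together. The change of the vegetal-to-animal difference from the 1-cell to the 1K-cell stage gives the size and direction and was not tested by itself. The interaction was called for 5 members (1.40%, beside 0.837% of all transcripts). In each the vegetal excess was smaller at the 1K-cell stage than in the egg (beside 0.778% of all transcripts in this direction). Of the 5, 4 were ZBTB genes. In 0 members it was larger (beside 0.0588%), where DESeq2 called 1, a transcript of *zbtb11*. The difference changed by -2.54 ± 0.35 for *zbtb22*, -0.86 ± 0.17 for *zbtb40*, -0.79 ± 0.13 for *znf628*, -0.73 ± 0.17 for *zbtb10* and -0.64 ± 0.14 for *zbtb18* (log2 ± SE, edgeR adjusted p = 2.62e-07, 0.000108, 1.2e-05, 0.000154 and 1.88e-05). The interaction was not called for *zbtb12* (change -0.78 ± 0.24, edgeR adjusted p = 0.239 over all terms) or *znf292* (change 0.35 ± 0.10, adjusted p = 0.192). All 5 calls were kept whichever embryo was left out, except that of *zbtb10* without 1-cell replicate 3 (adjusted p = 0.0121).

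Totals per embryo asked a separate question, whether the level of a member relative to the other RNAs counted rose or fell. A total sums the deposited counts of the sections, so a section weighs by its sequencing depth and not by its RNA. Between the 1- and 4-cell stages 38 members changed (10.7%, beside 10.9% of all transcripts), of which 24 rose (6.74%, beside 5.48%) and 14 fell (3.93%, beside 5.47%). Over all 4 stages 40 were called (11.2%, beside 15.7%), 21 of them higher at the 1K-cell stage than in the egg (beside 9.62%) and 19 lower (beside 6.08%). The balance of higher and lower calls depended on how totals were made. There were 12 higher and 16 lower from sections A, B, C and E only, and 15 and 18 from sums of normalized counts. The higher calls numbered 9 without 1-cell replicate 1, where 24 were called in all, 12 without 1-cell replicate 2 or 3 or 1K-cell replicate 2, and 13 without 1K-cell replicate 3. Shares over all transcripts under these settings were not examined, so the shift is not read as particular to members. The median change from the 1- to the 4-cell stage was 0.05 over members and -0.03 over all transcripts (log2). The count at this step fell to 24 without 1-cell replicate 1, 23 without 1-cell replicate 2, 25 without 4-cell replicate 1 and 24 without 4-cell replicate 2, with 12 rises and 12 falls in the last. The leucocyte marker *ptprc* fell over the same step by 5.35 ± 0.53 (log2 ± SE, edgeR adjusted p = 2.38e-05), and its part in the changes of the totals was not tested. From the 4- to the 64-cell stage 0 members were called by edgeR and 0 by DESeq2 (0.36% of all transcripts by edgeR), with 12 at an unadjusted p under 0.05. From the 64- to the 1K-cell stage 2 were called (0.562%, beside 3.18%), 1 higher (beside 3.12%) and 1 lower (beside 0.0623%).

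**Figure D3:**
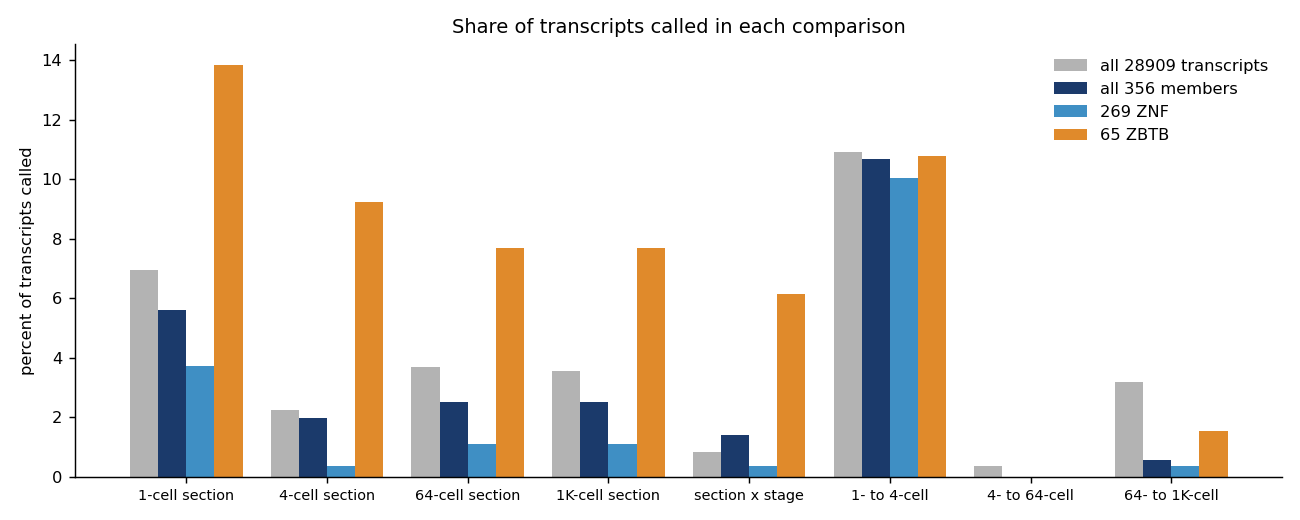
Percent of transcripts called (vertical axis) in each of the 4 section tests, the interaction and the 3 steps of the totals, for all 28909 transcripts, all 356 members, the 269 ZNF and the 65 ZBTB transcripts. The ZBTB bar is the highest in every section test and in the interaction, and the 4- to 64-cell step has 0 members called.

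In several genes, transcripts that share a symbol moved in opposite directions at the 1- to 4-cell step. This held for 5 of the 87 symbols with 2 or more transcripts, *ikzf4*, *znf131*, *znf639*, *zbtb11* and *znf300*. Of all transcripts 5.48% rose and 5.47% fell at this step. When the counts of all transcripts of a symbol were summed, none of the 5 was called at this step. Of the 159 symbols 10 were, 8 higher and 2 lower. Neither count of symbols was set beside the share over all symbols, so neither is read as particular to members.

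The change was most complete in *ikzf4*, which encodes the Ikaros factor Eos, known from regulatory T cells in mammals. Of its 10 transcripts, AMEXTC_0340000177870 had totals of 1705, 1160.0 and 1578 normalized counts at the 1-cell stage and 0 in all 9 later embryos, at least 1369-fold lower at the 4-cell stage (3 counts over the group in place of 0). AMEXTC_0340000177865 went from 538, 397 and 637 to 0 in all 9 later embryos, at least 485-fold lower. Both falls were called (edgeR adjusted p = 1.5e-05 and 5.42e-05) and held whichever embryo was left out. The leucocyte marker *ptprc* went from 248 to 316 in the egg to at most 13.2 later, and its part in these falls was not tested.

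The reverse was seen in 2 other *ikzf4* transcripts. AMEXTC_0340000177868 rose from 18.1, 6.70 and 0 to 907, 808 and 586 (log2 change 6.46 ± 0.51, edgeR adjusted p = 3.62e-06), and AMEXTC_0340000177869 from 8.51, 5.59 and 0 to 286, 321 and 272 (5.88 ± 0.52, adjusted p = 9.5e-06). Neither overlapped between the stages, as a naming rule that both met asks, and both stayed at these levels later. AMEXTC_0340000177871 was called over the 4 stages (adjusted p = 0.00884, lost in 9 of 12 fits without 1 embryo), at 379.6, 203 and 382 in the egg and 526 to 945 at the 4-cell stage. Another, AMEXTC_0340000177863, was called lower over the stages at 283, 31.3 and 82.3 in the egg, a call that DESeq2 did not give (adjusted p = 0.0729). The 4 transcripts left had at most 399 normalized counts in the egg and 0 in the 4-cell embryos, and none was called. The sum over the 10 was 3302, 2358 and 2750 in the egg and 2139, 1655 and 1516 in 4-cell embryos, a change of -0.66 (adjusted p = 0.0367). The transcripts may share reads that pseudo-alignment divides between them, which was not tested.

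Of the *ikzf4* transcripts 2 were called vegetal. AMEXTC_0340000177870 held 339.9, 128 and 201 in section A of the egg and 642, 483 and 692 in section E (difference 1.13 ± 0.18, edgeR adjusted p = 0.00181). AMEXTC_0340000177871 held 172, 103 and 191 in A and 243, 338 and 523 in E at the 64-cell stage, and 112, 92 and 102 beside 362, 231 and 324 at the 1K-cell stage. Its differences were 1.00 ± 0.14 and 1.23 ± 0.15 (adjusted p = 0.0027 and 0.00336). The calls of the first in the egg and of the second at the 1K-cell stage were lost whichever embryo was left out, and that of the second at the 64-cell stage without replicate 2 or 3 (highest edgeR adjusted p = 0.113, 0.15 and 0.225). *ikzf5*, the related factor Pegasus, had 1 transcript (AMEXTC_0340000231394) that went from 107, 80.5 and 33.2 in the egg to 0 to 10.5 later, called over the stages (adjusted p = 0.00578, kept in 5 of 12 fits without 1 embryo, highest 0.053), and another that was not called.

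ZNF131 is a BTB-containing zinc finger protein. Its transcript AMEXTC_0340000058211 fell from 1612, 1636 and 1654 in the egg to 35, 244 and 109 at the 4-cell stage (log2 change -3.67 ± 0.77, edgeR adjusted p = 0.00563). Over the same step AMEXTC_0340000059371 rose from 239, 346 and 264 to 1166, 1197 and 1501 (2.18 ± 0.19) and AMEXTC_0340000194429 from 164, 375 and 327 to 1625, 1376 and 1538 (2.39 ± 0.26, adjusted p = 7.04e-06 and 4.95e-05). Their levels crossed, and the sum of the 4 *znf131* transcripts changed by 0.36 (adjusted p = 0.123). The fall was lost whichever 1-cell embryo was left out and without 4-cell replicate 1 or 3 (highest adjusted p = 0.0266), while both rises held.

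In *znf639* one transcript (AMEXTC_0340000040370) fell from 1664, 1778 and 1622 to 585, 505 and 623 (-1.56 ± 0.14, edgeR adjusted p = 1.28e-05). The other (AMEXTC_0340000146650) rose from 1646, 1869.5 and 1891 to 3210, 3124 and 4012 (0.94 ± 0.18, adjusted p = 0.003), so a pair at like counts in the egg parted by the 4-cell stage. The rise was lost whichever 1-cell embryo was left out and without 4-cell replicate 3 (highest adjusted p = 0.0164). In *zbtb11*, needed for neutrophil development in zebrafish, AMEXTC_0340000002799 rose from 204, 364 and 124 to 931, 855 and 660.0 (1.82 ± 0.30, adjusted p = 0.00106) while AMEXTC_0340000168050 fell from 1055, 1004 and 998 to 587, 653 and 722 (-0.64 ± 0.11, adjusted p = 0.00118). The sums changed by 0.21 and -0.12 (adjusted p = 0.447 and 0.369). In *znf300* 3 of 11 transcripts rose by 0.83 to 1.17 and 1 fell by 1.24 (log2, adjusted p = 0.00471 or less), with a sum that changed by 0.25 (adjusted p = 0.159). Of these 4 calls only that of AMEXTC_0340000061925 held whichever embryo was left out (highest adjusted p of the others 0.0188 to 0.0212).

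**Figure D4:**
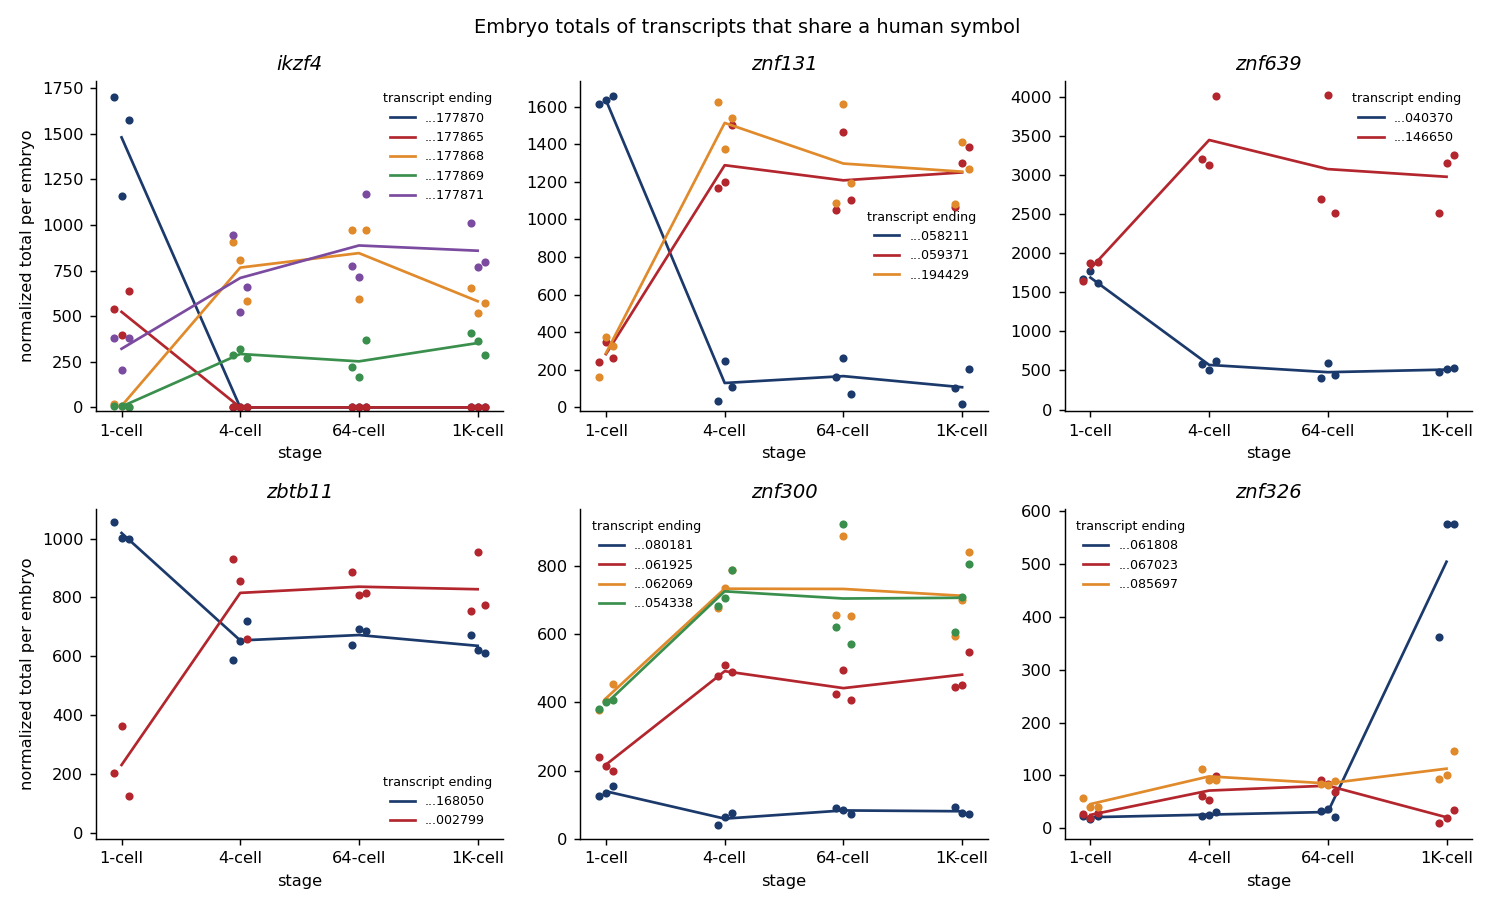
Normalized totals per embryo (vertical axis) by stage for transcripts of 6 symbols, with points for embryos and lines for means. In *ikzf4* AMEXTC_0340000177870 and AMEXTC_0340000177865 are at 0 in every embryo after the 1-cell stage while AMEXTC_0340000177868 and AMEXTC_0340000177869 appear, the *znf131* lines cross between the 1- and 4-cell stages, and AMEXTC_0340000061808 of *znf326* climbs at the 1K-cell stage.

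Falls were also seen without a rise of another transcript. A *znf142* transcript (AMEXTC_0340000053324) fell from 351, 287 and 336 in the egg to 1.89, 2.34 and 3.49 at the 4-cell stage (-6.93 ± 0.73, edgeR adjusted p = 3.72e-05), while another (AMEXTC_0340000221781), among the 10 members with the highest counts, had totals of 2571 to 3854 over the 12 embryos. The second *zbtb10* transcript, vegetal in the egg, fell from 383, 563 and 398 to 23.6, 15.2 and 56.9 (-3.81 ± 0.46, adjusted p = 0.000106). The steeply vegetal *zbtb22* fell from 1939.5, 1905 and 2021 to 947, 501 and 1100.4 (-1.20 ± 0.22, adjusted p = 0.00222). Its later profile was flatter and its total lower. The totals of *zbtb10* (AMEXTC_0340000011917), *zbtb18*, *zbtb40* and *znf628* gave no call in any step.

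Among single rises, *znf282* led with AMEXTC_0340000058371, at 139, 109.5 and 122 in the egg and 392, 445 and 586 at the 4-cell stage (1.94 ± 0.19, edgeR adjusted p = 2.41e-05). Of its 11 transcripts 3 rose, and the sum over the 11 rose as well, by 0.79 (adjusted p = 0.000365). Called rises were also found for *zbtb43* (0.59 ± 0.12) and for 1 of the 2 *zbtb49* transcripts (1.10 ± 0.19), neither of which was examined with an embryo left out.

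At the 1K-cell stage, the early blastula, 1 member rose and 1 fell. A transcript of *znf326* (AMEXTC_0340000061808), whose human protein links splicing to transcript elongation, stood at 16.8 to 37.2 in the 9 earlier embryos and at 362, 577 and 575 at the 1K-cell stage (log2 change from the 64-cell stage 4.04 ± 0.28, edgeR adjusted p = 1.01e-05). The sum of the 8 *znf326* transcripts, 4259 to 5075 at the 64-cell stage and 4924 to 6358 at the 1K-cell stage, was not called. A transcript of *zbtb45* (AMEXTC_0340000012558) fell from 163, 198 and 184 to 14.3, 40 and 20 (-2.87 ± 0.40, adjusted p = 0.000933). Both were named by a rule that asks for no overlap between these stages. Both calls held whichever embryo was left out.

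Most members gave no call. The 10 with the highest counts, which are not corrected for length, were *znf292*, *znf628*, *znf638*, *znf281*, *znf518b*, *znf217*, *zbtb18*, *zbtb39*, *znf462* and *znf142*, and none of these transcripts was called for totals. *znf217*, a partner of corepressor complexes in human cells, had 3879 to 4754 over all 12 embryos and *znf281* 4264 to 5923. The 3 *zfx* transcripts gave no call, the one with the most counts (AMEXTC_0340000201467) with totals of 1125 to 1693. *zfhx2* and *zfhx3*, large homeodomain zinc finger genes, had at most 84.9 normalized counts and gave no call. In all, 292 of 356 members were called in no test (beside 76% of all transcripts), 21 for section in at least 1 stage (beside 8.21%), 48 for totals (beside 16.9%) and 5 for both (beside 1.14%).

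The corepressors that BTB and zinc finger factors recruit were examined as well, as a list of 36 genes of which 31 were measured. Each gene was represented by its transcript with the highest mean count, and other transcripts of these genes were not examined. At the 1-cell stage 2 of the 31 were vegetal (beside 5.59% of all transcripts) and 2 animal (beside 1.34%), and no other stage had an animal one. The vegetal ones were *tbl1x*, a subunit of the NCOR complex, and *bcor*, which binds the BTB domain of BCL6 in mammals. Their differences were 0.97 ± 0.11 and 1.15 ± 0.20 (edgeR adjusted p = 0.000133 and 0.00182). *tbl1x* was vegetal at the 64- and 1K-cell stages too (0.64 ± 0.06 and 0.59 ± 0.07, adjusted p = 0.000293 and 0.00412), and *bcor* at the 1K-cell stage (0.56 ± 0.10, adjusted p = 0.00899). The animal ones were *kdm1a*, a histone demethylase (-0.54 ± 0.10), and *rcor1*, the scaffold that holds it (-0.50 ± 0.08, adjusted p = 0.00732 and 0.00982). The total of *kdm1a* was lower at the 1K-cell stage than in the egg (-0.44 ± 0.10, adjusted p = 0.00782 over the stages). None of these transcripts was called in any test for the 11 NuRD genes or the 5 measured partners of KRAB factors, such as *trim28*. The median difference of the 31 at the 1-cell stage was -0.18, beside -0.04 for all transcripts. The corepressor calls were not examined with an embryo left out or with the alternative methods.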

How the data were processed

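RNA was measured in 59 libraries. The authors trimmed reads with Trimmomatic, pseudo-aligned them with kallisto 0.43.1 and deposited estimated counts as whole numbers, for transcripts with over 30 counts in some library. Normalized values, embryo totals and their DESeq2 scaling by the authors were deposited too and not used here. The normalized counts given are the deposited counts divided by size factors, within a stage for sections and over 12 embryos for totals. Human symbols came from the deposited ortholog list.

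Members were tested over all transcripts together with edgeR 4.0.16 (limma 3.58.1, R 4.3.3) and median-of-ratios size factors, by quasi-likelihood tests with Benjamini-Hochberg adjustment over all 28909 transcripts. Terms were section and embryo within a stage, stage and section with their interaction over all libraries, and stage for totals. Calls took adjusted p-values below 0.01 and, in some stage, mean totals above 20. Alternatives were DESeq2 1.42.0, TMM, filterByExpr, sums per symbol, other embryo terms, other totals and leaving out each embryo.

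Members, lists and the rule for named genes were chosen with earlier results of these data known. The rule takes, with a mean total of at least 100, the up to 5 called transcripts with the largest difference on either side in each stage, with the same sign in every embryo and the up to 5 largest called rises and falls in each step without overlap. It adds members called at all 4 stages, the 10 with the highest totals, all IKZF, ZFX and ZFHX transcripts, symbols whose transcripts were called in opposite directions, up to 5 called for the interaction and up to 4 called corepressors. Other called members, the third *zbtb12* transcript and the minor transcripts of *zbtb37*, *znf638* and *znf282* were named after their values were seen. Counts of sections of 1 embryo share the embryo. The same numbers at different stages were not taken to pair embryos. Correlations of totals, as deviations from stage means, were -0.292 to 0.291 for 18 same-numbered pairs and -0.326 to 0.288 for 36 others. With so few embryos they cannot show whether a number follows the parents. P-values of totals measure the spread between these embryos. Since the parents of each embryo were not recorded, a difference between stages cannot be told apart from one between parents or experiments. Those of the section tests measure how section profiles vary between embryos, with the level of each embryo taken out. The interaction test had no embryo term, so it treated the sections of an embryo as independent libraries. On simulated data, the section test of the 1-cell stage recovered 100% of log2 changes of 2 and 50% of log2 changes of 1 among 28909 transcripts, the 1- to 4-cell test 98% and 29% and the interaction test 97% and 11%. The simulated counts had the same dispersion for every transcript and no differences between embryos, so these rates may not hold in the real data. No genome or sequence was used, so no positions are given.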

Additional observations from a re-analysis of the deposited data

Results flagged for a closer look

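In 5 members the section profile depended on the stage by the interaction test over all its terms. The vegetal-to-animal difference changed from the 1-cell to the 1K-cell stage by -2.54 for *zbtb22*, -0.86 for *zbtb40*, -0.79 for *znf628*, -0.73 for *zbtb10* and -0.64 for *zbtb18* (log2). These changes were not tested by themselves. The groups of 3 embryos are too small to look for single distant embryos.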

How the results depend on the processing

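With DESeq2 the members called were 46, 20, 27 and 19 for section in the order of the stages (27, 13, 16 and 13 of them vegetal), 68 for totals over the stages and 5 for the 64- to 1K-cell step, where edgeR gave 20, 7, 9, 9, 40 and 2. Counts summed per symbol gave 23, 9, 12 and 10 symbols for section in the order of the stages (13, 7, 9 and 7 of them vegetal). They gave 12 symbols for totals over the stages, 10 for the 1- to 4-cell step and 0 for the 64- to 1K-cell step. No count under an alternative setting was set beside its share over all transcripts or symbols, so none is read as particular to members. Leaving out 1 embryo gave 6 to 7, 1 to 3, 2 to 6 and 3 to 4 for section, 4 to 6 for the interaction, 24 to 43 for totals over the stages, 23 to 38, 0 to 0 and 2 to 3 for the steps, from fewer samples. A *znf326* transcript (AMEXTC_0340000067023) turned from -0.29 to 0.39 over the stages without section D, and ranged from -0.82 (without 1K-cell replicate 3) to 0.056 (without 1K-cell replicate 1), and the cause was not tested. Of 92 named calls of members, 91 held with DESeq2 and 92 with TMM or with filterByExpr. Of 49 named calls for totals, 42 held with sections A, B, C and E only (6 lost, 1 turned) and 42 with sums of normalized counts (7 lost). Embryos with the same number at different stages were not treated as pairs, so the replicate block is given only here. It left 35 members called for the 1- to 4-cell step, and lost 7 of 54 named calls. Without the embryo block within a stage 18, 6, 7 and 8 members were called for section. Symbols with several transcripts give no value of a single transcript when summed. Depth limits rare transcripts most, and 3 embryos a stage limit small differences.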
